A study of Mus musculus with 12 samples.

Results

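Genes of the phagocyte NADPH oxidase and of the Nrf2 response were followed in brains of mice that lack *Tpp1*. The 9 genes were chosen by symbol from the 52459 genes listed in the count tables and fall into 5 oxidase subunits (*Cybb*, *Cyba*, *Ncf1*, *Ncf4* and *Rac2*) and 4 Nrf2 targets (*Hmox1*, *Nqo1*, *Srxn1* and *Txnrd1*). All 9 were found, and all 9 passed the filter on low counts in every comparison. *Tpp1* encodes tripeptidyl peptidase, a lysosomal protease whose loss causes classical late-infantile neuronal ceroid lipofuscinosis. RNA of whole cerebellum (Cb) and of whole forebrain/midbrain (F/M) was sequenced from male *Tpp1*-/- homozygotes (T) and male wild type siblings (N), all 4 months of age, giving 12 libraries with 3 in each of the groups Cb-N, Cb-T, F/M-N and F/M-T. The *Tpp1* allele is a targeted one, both genotypes descend from heterozygous parents, and the labels give no treatment. Both areas came from the same small set of mice of each genotype, and the labels do not say which Cb and F/M libraries share a mouse. The replicates were separate samples by their labels, so that the p-values measure the spread between these samples.

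The phagocyte NADPH oxidase carries electrons from NADPH across a membrane to oxygen and so makes superoxide. Its membrane core is a cytochrome of a large catalytic chain and a small stabilizing chain, and it is switched on when a group of cytosolic subunits and a Rac GTPase join the core. In the brain this form of the enzyme is best known from microglia and from the macrophages of the brain's borders. Nrf2 is a transcription factor that Keap1 marks for degradation, and that, when oxidants or electrophiles release it, pairs with a small Maf protein on antioxidant response elements and raises genes of detoxification, thioredoxin, glutathione and heme breakdown.

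Total counts per library lay between 21428379 and 24458189. The floor taken as detectable was 3 counts of a gene, or 0.123 to 0.140 CPM by these totals without TMM scaling. This floor covers counting error only. All CPM values below are counts scaled to the library size by the TMM method. *Tpp1* itself was at 112 to 114 CPM in Cb-N against 28.0 to 31.1 CPM in Cb-T, and at 87.8 to 94.4 CPM in F/M-N against 21.8 to 23.9 CPM in F/M-T, so that every library matched its label although reads of the disrupted gene remained. The names of the deposited files put the letter T on the libraries that the labels call N, and the groups here follow the labels. A gene was called higher or lower when edgeR's quasi-likelihood test gave a Benjamini-Hochberg adjusted p (FDR) below 0.1 over all genes tested and the fold change was at least 1.5. All adjusted p values below come from that test. The Cb-T libraries stood apart from Cb-N in 12 Hox genes of the hindbrain and spinal cord, whose summed level was 0.232 to 0.505 CPM in Cb-N against 12.7 to 13.5 CPM in Cb-T and at most 0.0847 CPM in F/M. Those Hox genes that could be tested in Cb passed the filter through the Cb-T libraries, so that their calls are not counted here. What the Cb samples contained beside cerebellum and the genotype cannot be told apart in Cb, and every value of Cb-T below carries that limit.

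All 5 oxidase subunits were called higher in *Tpp1*-deficient Cb, where 8.54% of the 16382 genes tested were called higher. One of them, *Ncf4*, passed the filter on low counts in Cb through the Cb-T libraries, and the same 5 were called in a fit with no filter on low counts, in which every gene with a count was tested. In F/M, 4 of the 5 were called higher, where 2.63% of 16665 genes tested were. Of the 4 Nrf2 targets, 1 was called higher in each area, *Hmox1*. At any fold, all 9 genes passed the FDR limit upward in Cb, where 29.8% of all genes tested did, and 8 of 9 in F/M, where 12.8% did. The T libraries lay wholly above the N libraries for all 9 genes in Cb and for 8 of 9 in F/M, as they did for 27.7% of all genes tested in Cb and 13.3% in F/M. The median log2 fold change of the oxidase subunits was 1.45 in Cb and 0.99 in F/M, that of the Nrf2 targets was 0.36 in Cb and 0.21 in F/M, and that of all genes tested was 0.012 in Cb and 0.0078 in F/M. 

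*Cybb* (chrX:9435252-9487771, minus strand, GRCm38) encodes the catalytic chain of the oxidase. Its level was 1.15, 1.61 and 1.39 CPM in the 3 Cb-N libraries and 6.88, 6.37 and 5.64 CPM in the 3 Cb-T libraries. In F/M it was 1.17, 0.811 and 0.889 CPM in N and 3.29, 3.81 and 3.08 CPM in T. No T library overlapped an N library of its area, and the Cb-T libraries stood above all others. The rise was 4.58-fold in Cb (log2 fold change 2.20, SE 0.16, adjusted p = 9.29e-16) and 3.61-fold in F/M (log2 fold change 1.85, SE 0.19, adjusted p = 8.2e-07). Among the 9 genes it changed most in both areas. The rises in Cb and F/M differed by 0.36 on the log2 scale (SE 0.27), and this difference did not pass the test of the tissue by genotype interaction (adjusted p = 0.39). It was 0.19 (adjusted p = 0.738) without the library F/M-N1.

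*Cyba* (chr8:122424776-122432930, minus strand) encodes the small chain that holds the catalytic chain in the membrane. It was at 3.77, 3.49 and 3.20 CPM in Cb-N against 9.75, 8.82 and 9.82 CPM in Cb-T. In F/M the N libraries held 3.60, 2.88 and 4.66 CPM and the T libraries 8.10, 5.96 and 7.75 CPM. In both areas the highest N library lay below the lowest T library, but the N libraries of F/M spread more widely than those of Cb. *Cyba* rose 2.73-fold in Cb (log2 fold change 1.45, SE 0.11, adjusted p = 9.61e-15) and 1.99-fold in F/M (log2 fold change 0.99, SE 0.15, adjusted p = 8.24e-05). The difference between the areas was 0.48 on the log2 scale (SE 0.20, adjusted p = 0.0848), below the 1.5-fold limit. Among the alternatives run it passed that limit without the library F/M-N2, with a difference of 0.63 and an adjusted p of 0.0155, and the difference was 0.28 (adjusted p = 0.366) without F/M-N3.

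*Ncf1* (chr5:134220053-134229625, minus strand) encodes the cytosolic organizer subunit that binds the membrane core. Its level was 2.40, 2.84 and 2.74 CPM in Cb-N against 6.88, 5.92 and 5.35 CPM in Cb-T. In F/M it was 6.55, 6.53 and 7.67 CPM in N and 9.51, 7.83 and 8.22 CPM in T. The F/M-N libraries thus reached the range of the Cb-T libraries without the mutation, and in F/M the nearest T and N libraries lay close together. *Ncf1* rose 2.29-fold in Cb (log2 fold change 1.20, SE 0.14, adjusted p = 6.74e-10). In F/M its log2 fold change was 0.33 (SE 0.10, adjusted p = 0.0285), which passed the FDR limit but not the fold limit. The difference between the areas passed its own test, at 0.89 on the log2 scale (SE 0.17, adjusted p = 0.000308). This gene shares 408 bases of its exons, 11.1%, with *Gtf2ird2* on the other strand, and the strand setting of the authors' counting is not given in the sources used here, so that its reads are uncertain to that extent. *Gtf2ird2* was at 22.4 ± 0.73 CPM (SD, n = 3) in Cb-N against 22.9 ± 0.55 CPM in Cb-T, and at 21.2 ± 0.67 CPM in F/M-N against 19.5 ± 0.39 CPM in F/M-T. It was not called in either area (adjusted p = 0.564 in Cb and 0.315 in F/M).

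*Ncf4* (chr15:78244801-78262580, plus strand) encodes the cytosolic subunit that binds a phosphoinositide of the phagosome membrane. It was the lowest of the 9 genes by CPM, with 5 to 7 counts per library in Cb-N against 15 to 28 in Cb-T, and 12 to 16 in F/M-N against 27 to 34 in F/M-T. Its level was 0.311, 0.229 and 0.278 CPM in Cb-N against 1.18, 0.604 and 1.16 CPM in Cb-T. In F/M it was 0.564, 0.541 and 0.678 CPM in N and 1.18, 1.41 and 1.29 CPM in T. The groups did not overlap in either area, and 1 of the Cb-T libraries lay at about the level of the F/M-N libraries. *Ncf4* rose 3.56-fold in Cb (log2 fold change 1.83, SE 0.38, adjusted p = 6.51e-05) and 2.21-fold in F/M (log2 fold change 1.15, SE 0.26, adjusted p = 0.0034). Since it passed the filter in Cb through the Cb-T libraries, it was also tested with no filter on low counts, where the log2 fold change in Cb was 1.83 (adjusted p = 5.04e-06). Its SE was the largest of the 9 genes in both areas. The difference between the areas was 0.71 on the log2 scale with an SE of 0.47 (adjusted p = 0.324).

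*Rac2* (chr15:78559167-78572783, minus strand) encodes the Rac GTPase of blood-derived cells that completes the active oxidase. Its level was 0.977, 0.872 and 1.49 CPM in Cb-N against 3.21, 2.70 and 2.90 CPM in Cb-T. In F/M it was 2.17, 1.31 and 2.58 CPM in N and 4.07, 3.36 and 4.28 CPM in T. All T libraries stood above the N libraries of their area, and 1 F/M-N library lay below the highest Cb-N library. *Rac2* rose 2.66-fold in Cb (log2 fold change 1.41, SE 0.20, adjusted p = 1.3e-07) and 1.96-fold in F/M (log2 fold change 0.97, SE 0.19, adjusted p = 0.000985). The areas differed by 0.46 (SE 0.30, adjusted p = 0.301), and without the library F/M-N2 by 0.69 (adjusted p = 0.071), past both limits. It was 0.24 (adjusted p = 0.647) without F/M-N3 and 0.72 (adjusted p = 0.12) without Cb-N3.

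**Figure D1:**
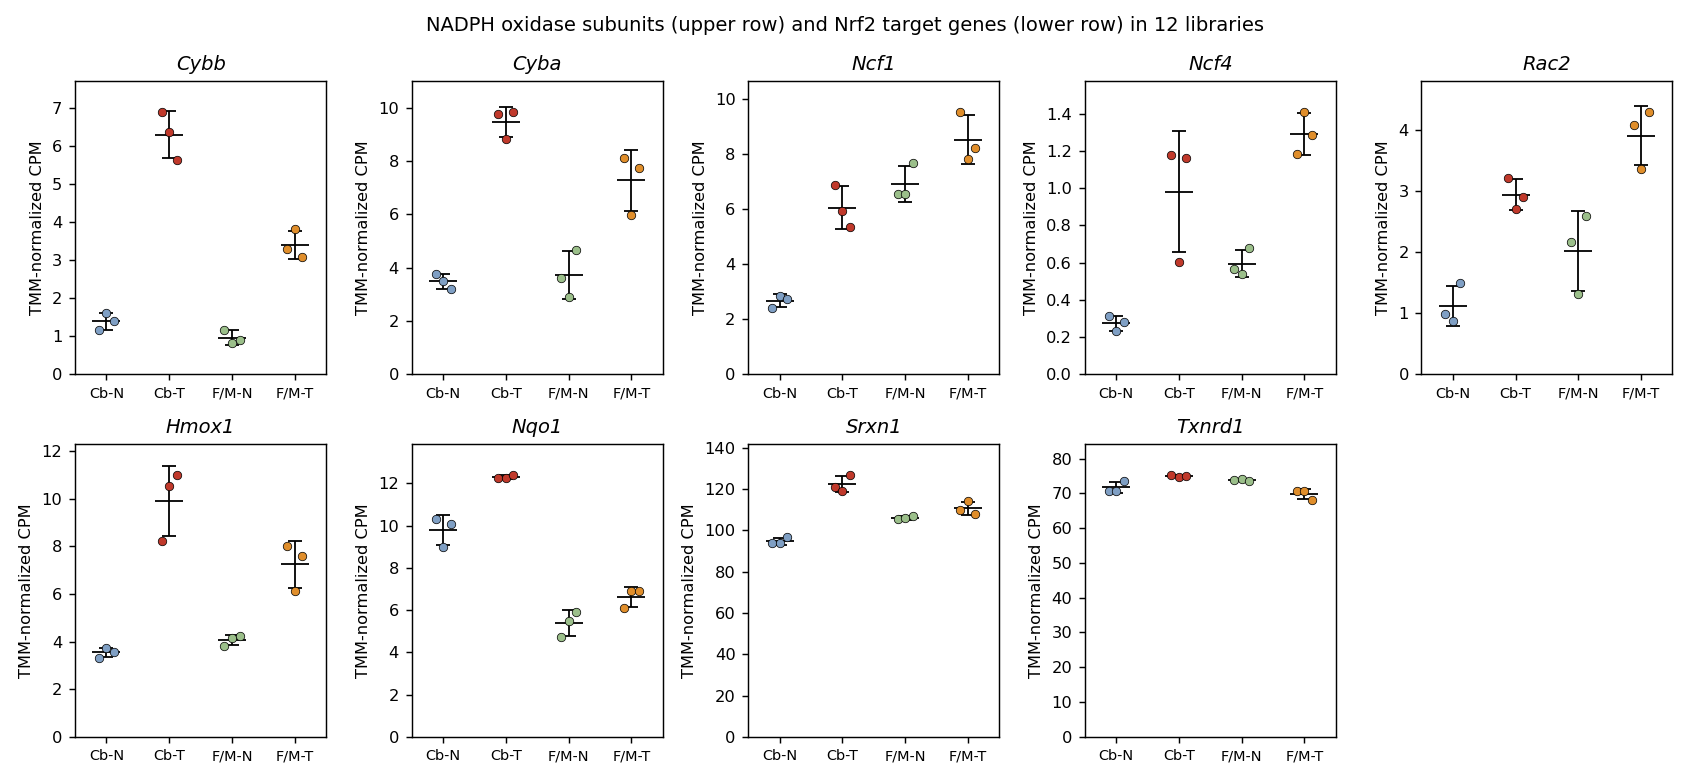
Level of each gene in TMM-normalized CPM (vertical axis, from 0) in the 4 groups (horizontal axis); points are libraries, and the bar and whiskers are the mean and SD of 3. The T libraries lie above the N libraries of the same area for all 5 oxidase subunits and for *Hmox1*, while *Txnrd1* stays between 68.1 and 75.2 CPM in all 12 libraries.

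*Hmox1* (chr8:75093621-75100589, plus strand) encodes heme oxygenase, which breaks heme down to biliverdin, carbon monoxide and iron. It was at 3.33, 3.72 and 3.57 CPM in Cb-N against 8.23, 10.5 and 11.0 CPM in Cb-T. In F/M it was at 3.82, 4.14 and 4.24 CPM in N and at 8.02, 6.13 and 7.58 CPM in T. All T libraries were above all N libraries of both areas. *Hmox1* rose 2.83-fold in Cb (log2 fold change 1.5, SE 0.12, adjusted p = 1.93e-14) and 1.82-fold in F/M (log2 fold change 0.86, SE 0.12, adjusted p = 3.69e-05). The rise in Cb exceeded that in F/M by 0.66 on the log2 scale (SE 0.18, adjusted p = 0.00894). That difference fell below the fold limit without the library F/M-T2 (0.55, adjusted p = 0.0286) and without the library Cb-T3 (0.53, adjusted p = 0.0461).

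*Nqo1* (chr8:107388225-107403206, minus strand) encodes a quinone reductase that is a classical Nrf2 target. Its level was 10.3, 8.99 and 10.1 CPM in Cb-N against 12.2, 12.2 and 12.4 CPM in Cb-T. In F/M it was 4.73, 5.50 and 5.93 CPM in N and 6.09, 6.92 and 6.90 CPM in T. The T libraries stood above the N libraries in each area by a small margin. The log2 fold change was 0.34 in Cb (SE 0.083, adjusted p = 0.000583) and 0.33 in F/M (SE 0.11, adjusted p = 0.0386), both past the FDR limit and below the fold limit. The areas differed by 0.03 (SE 0.13, adjusted p = 0.921), and this difference changed sign when single libraries were left out.

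*Srxn1* (chr2:152105516-152111376, plus strand) encodes sulfiredoxin, which restores overoxidized peroxiredoxins. It was at 93.7, 93.9 and 96.8 CPM in Cb-N against 121, 119 and 127 CPM in Cb-T. In F/M it was at 105, 106 and 107 CPM in N and at 110, 114 and 108 CPM in T. The replicates lay so close together that a change of 0.38 on the log2 scale in Cb (SE 0.032, adjusted p = 1.64e-13) was far past the FDR limit and still below the fold limit. In F/M the change was 0.09 (SE 0.034, adjusted p = 0.0599). The difference between the areas was 0.31 (SE 0.047, adjusted p = 9.75e-06), again below the fold limit.

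*Txnrd1* (chr10:82833951-82897712, plus strand) encodes the cytosolic thioredoxin reductase. It was at 70.6, 70.8 and 73.7 CPM in Cb-N against 75.2, 74.6 and 75.0 CPM in Cb-T. In F/M it was at 73.9, 74.1 and 73.6 CPM in N and at 70.7, 70.6 and 68.1 CPM in T. The T libraries were thus above N in Cb and below N in F/M, each without overlap and by little. The log2 fold change was 0.08 in Cb (SE 0.036, adjusted p = 0.0642) and -0.05 in F/M (SE 0.037, adjusted p = 0.388), where the median over all genes was 0.012 and 0.0078. The difference between the areas was 0.15 (SE 0.049, adjusted p = 0.0304), below the fold limit.

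**Figure D2:**
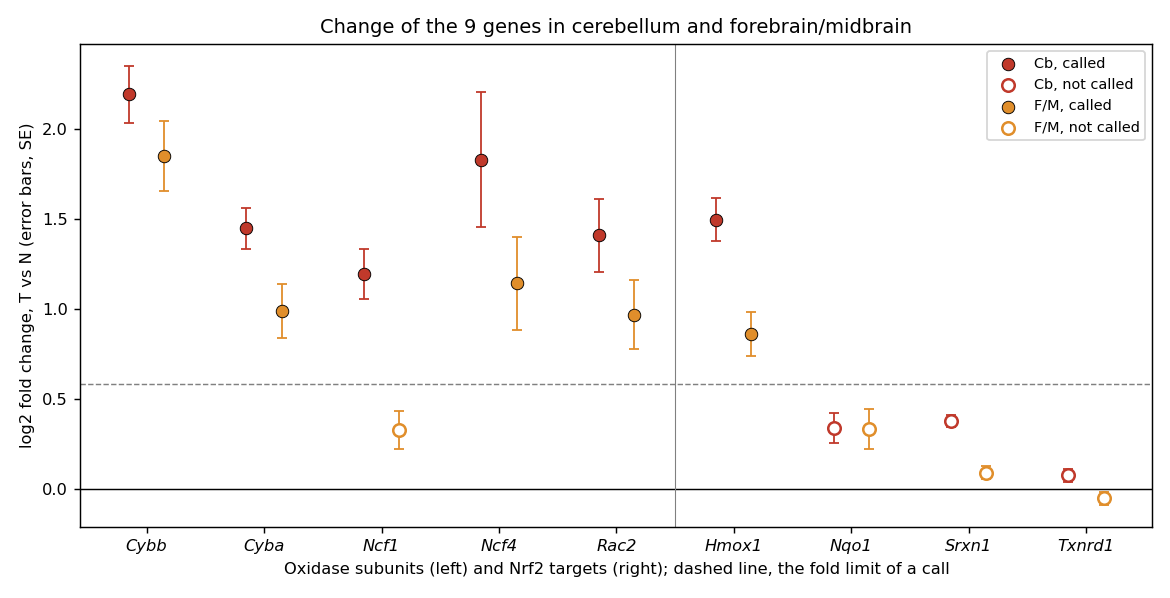
Log2 fold change of T against N with its SE (vertical axis) for the 9 genes (horizontal axis) in Cb and F/M; filled points passed both limits of a call, open points did not, and the dashed line is the 1.5-fold limit. The oxidase subunits and *Hmox1* lie between 0.86 and 2.20 apart from *Ncf1* in F/M at 0.33, and *Nqo1*, *Srxn1* and *Txnrd1* lie between -0.05 and 0.38.

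The 2 sets can also be set side by side within each library, as the mean log2 CPM over the set. For the oxidase subunits this mean was 0.47 to 0.60 in Cb-N against 1.88 to 2.19 in Cb-T, and 0.79 to 1.24 in F/M-N against 1.98 to 2.09 in F/M-T. For the Nrf2 targets it was 4.45 to 4.50 in Cb-N against 4.96 to 5.08 in Cb-T, and 4.29 to 4.41 in F/M-N against 4.61 to 4.65 in F/M-T. Both means were higher in every T library than in every N library of the same area, and the oxidase mean moved further. The oxidase mean minus the Nrf2 mean was -3.96 ± 0.044 (SD, n = 3) in Cb-N, -2.99 ± 0.20 in Cb-T, -3.32 ± 0.23 in F/M-N and -2.59 ± 0.036 in F/M-T. The mean of the Nrf2 set is moved mainly by *Hmox1*, since the other genes of the set changed by at most 0.38 on the log2 scale.

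The tissue by genotype test called 2 of the 9 genes, *Ncf1* and *Hmox1*, both with the larger rise in Cb, where 6.41% of 17482 genes tested were called in that direction. At any fold, 5 of the 9 genes passed its FDR limit with the higher log2 fold change in Cb, where 17.4% of all genes tested did. These were *Cyba*, *Ncf1*, *Hmox1*, *Srxn1* and *Txnrd1*. The estimate was above 0 for all 9 genes, and the median over all genes tested was 0.027. These values share the Cb-N and F/M-N libraries with the comparisons within each area.

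The areas were also compared in the control mice. Of the 9 genes, 4 were called between Cb-N and F/M-N, a share near the 42.4% of 17482 genes tested that were called. Lower in Cb were *Ncf1* (log2 difference of Cb-N to F/M-N -1.38, SE 0.13, adjusted p = 1.49e-10), *Ncf4* (-1.11, SE 0.40, adjusted p = 0.0139) and *Rac2* (-0.87, SE 0.24, adjusted p = 0.00195), although the *Rac2* libraries of the areas overlapped. *Nqo1* was higher in Cb (0.86, SE 0.098, adjusted p = 3.9e-09). *Cyba* gave -0.10 (SE 0.16, adjusted p = 0.6), from -0.25 to 0.10 with single libraries left out, and *Cybb* gave 0.53 (SE 0.24, adjusted p = 0.045), below the fold limit. The *Cybb* difference passed that limit without the library F/M-N1 (0.69, adjusted p = 0.0228) or without Cb-N1 (0.64, adjusted p = 0.0258). *Hmox1*, *Srxn1* and *Txnrd1* gave -0.20, -0.16 and -0.04, none of them called.

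Levels of different genes were compared per length, as CPM for each kilobase of the union of a gene's exons (RPKM). *Srxn1* was the highest of the 9 genes in all groups, at 33.6 ± 0.61 RPKM (SD, n = 3) in Cb-N against 43.4 ± 1.4 in Cb-T, and 37.6 ± 0.33 in F/M-N against 39.2 ± 1.1 in F/M-T. *Txnrd1* came next, at 9.85 to 10.6 RPKM in the group means. The oxidase subunits were lower, and the levels of the subunits of 1 enzyme were far apart. In Cb-T the order was *Cyba* (9.11 ± 0.54 RPKM), *Ncf1* (1.65 ± 0.21), *Cybb* (1.08 ± 0.11), *Rac2* (0.946 ± 0.082) and *Ncf4* (0.486 ± 0.16), in which the libraries of *Cybb* and *Rac2* overlapped. In Cb-N it was *Cyba* (3.36 ± 0.27), *Ncf1* (0.726 ± 0.064), *Rac2* (0.358 ± 0.11), *Cybb* (0.238 ± 0.039) and *Ncf4* (0.135 ± 0.020), with no overlap between neighbours. In F/M-N *Cybb* was the lowest of all at 0.165 ± 0.033 RPKM, and in F/M-T it overlapped with *Ncf4* (0.584 ± 0.065 and 0.640 ± 0.056 RPKM). *Cyba* and *Nqo1* overlapped in F/M-N, at 3.58 ± 0.86 and 3.47 ± 0.39 RPKM, and *Nqo1* and *Hmox1* overlapped in F/M-T, at 4.27 ± 0.30 and 4.14 ± 0.56 RPKM.

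**Figure D3:**
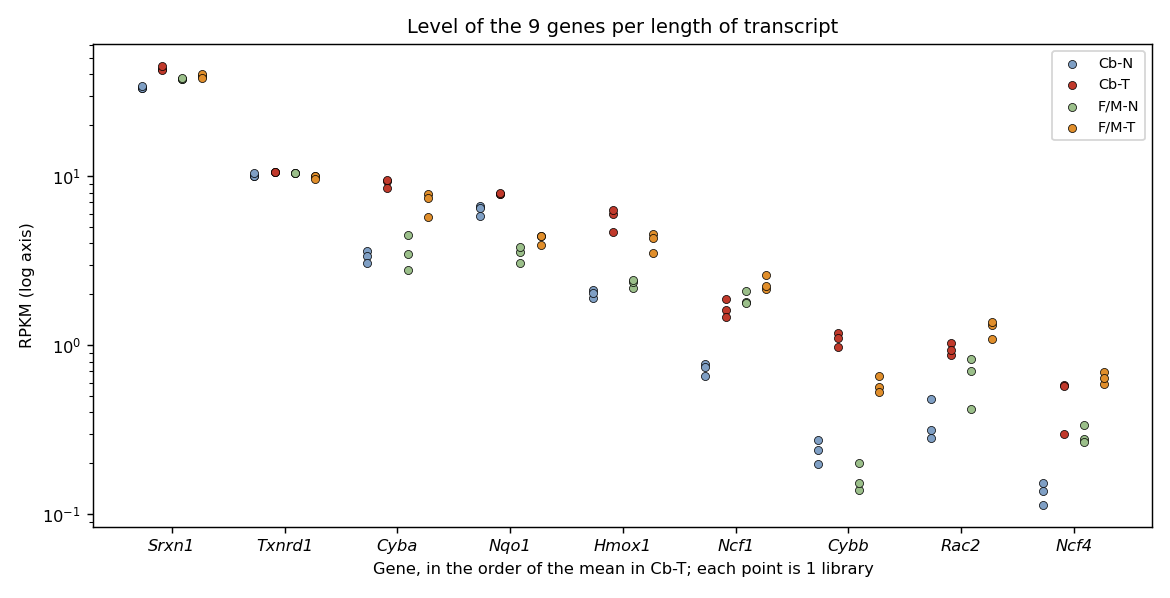
Level per length of each of the 9 genes in RPKM on a log axis (vertical), with 1 point per library and the genes in the order of the Cb-T means (horizontal). *Srxn1* lies at 33.2 to 44.9 RPKM throughout, while *Cybb* moves from 0.199 to 0.276 RPKM in Cb-N to 0.971 to 1.18 RPKM in Cb-T.

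The bases before the start sites of the 9 genes were searched for short motifs. RefSeq promoter windows of GRCm38.p6 were at hand for 6 of the 9 genes, with 8 windows of 250 bases before a start. *Hmox1*, *Ncf4* and *Rac2* had no entry. The core of the antioxidant response element, written here as TGACNNNGC or TGAGNNNGC on either strand, was present in 23% of 32851 promoter windows of the same length. It was found in the windows of *Srxn1* and of 1 of the 3 starts of *Txnrd1*, and its letters were not in the window of *Nqo1*. The AP-1 site TGAGTCA, in 4.46% of all windows, was found at 95 and at 38 bases before the start of *Srxn1*, the nearer one within an element match. GAGGAA, 1 form of the site bound by the macrophage factor PU.1, was in 23.3% of all windows and was not in those of *Cybb*, *Cyba* and *Ncf1*. Other forms of that site were not searched for, so that its absence from these windows is not shown. Of the Nrf2 targets, *Txnrd1* had GAGGAA on the minus strand of another of its windows, at 163 and at 78 bases before the start. Shown are the *Srxn1* window (chr2:152105274-152105523, plus strand), the *Txnrd1* window with a match (chr10:82858956-82859205, plus strand) and, for the oxidase, the *Cybb* window with none (chrX:9469325-9469574, minus strand), each written 5′ to 3′ with element matches in capitals.
Srxn1: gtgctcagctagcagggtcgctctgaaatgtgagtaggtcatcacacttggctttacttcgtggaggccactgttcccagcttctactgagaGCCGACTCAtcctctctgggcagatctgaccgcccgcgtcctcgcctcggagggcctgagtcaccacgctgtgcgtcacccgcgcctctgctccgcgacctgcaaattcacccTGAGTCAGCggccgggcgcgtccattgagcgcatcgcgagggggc
Txnrd1: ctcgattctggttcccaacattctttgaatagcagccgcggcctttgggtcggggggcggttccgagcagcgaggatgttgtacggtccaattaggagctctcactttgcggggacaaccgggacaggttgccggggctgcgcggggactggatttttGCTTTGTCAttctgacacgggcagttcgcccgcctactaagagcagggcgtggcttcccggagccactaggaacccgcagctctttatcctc
Cybb: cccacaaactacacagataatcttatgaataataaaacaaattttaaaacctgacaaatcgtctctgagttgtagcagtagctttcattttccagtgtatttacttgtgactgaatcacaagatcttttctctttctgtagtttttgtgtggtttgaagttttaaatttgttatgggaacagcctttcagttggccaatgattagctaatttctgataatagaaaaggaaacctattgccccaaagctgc
The matches in *Srxn1* are GCCGACTCA on the minus strand, 149 bases before the start, and TGAGTCAGC on the plus strand, 36 bases before it. The match in *Txnrd1* is GCTTTGTCA on the minus strand, 83 bases before the start. Of these genes, the one with 2 matches changed by 0.38 on the log2 scale in Cb and the one with 1 match by 0.08, while *Nqo1* without a match changed by 0.34.

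Further genes that the oxidase works with were read from a list of 8, all tested in both areas. In Cb 3 of 8 were called higher, where 8.54% of all genes tested were, and 0 lower. In F/M 2 were called higher and 1 lower, where 2.63% and 0.858% of all genes tested were. *Hvcn1*, the proton channel that balances the charge moved by the oxidase, was at 1.11 to 1.19 CPM in Cb-N against 5.44 to 5.87 CPM in Cb-T, and at 2.39 to 2.61 CPM in F/M-N against 5.91 to 6.71 CPM in F/M-T. Its rise of 2.30 on the log2 scale in Cb (SE 0.16, adjusted p = 5.17e-16) was near that of *Cybb* (2.20, SE 0.16), the largest of the subunits. In F/M *Hvcn1* rose by 1.34 (SE 0.13, adjusted p = 1.93e-07), less than *Cybb* (1.85, SE 0.19). The 2 genes were not tested against each other.

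*Vav1*, an exchange factor that loads Rac with GTP, rose by 1.42 in Cb (SE 0.18, adjusted p = 1.14e-08) and by 0.66 in F/M (SE 0.12, adjusted p = 0.000697). *Arhgdib*, which keeps Rac inactive in the cytosol of blood-derived cells, rose by 0.95 in Cb (SE 0.12, adjusted p = 4.5e-09) and gave 0.33 in F/M (SE 0.089, adjusted p = 0.0122), below the fold limit. The genes of wider expression stayed within the fold limit upward. *Rac1*, the Rac of most cells, passed the FDR limit upward by little, with 0.07 in Cb (SE 0.027, adjusted p = 0.0322) and 0.10 in F/M (SE 0.032, adjusted p = 0.0304), and its T libraries were above its N libraries in both areas, at 199 to 227 CPM in all. *Prkcb*, a protein kinase C that phosphorylates the organizer subunit, gave -0.22 in Cb and -0.12 in F/M. *Prkcd*, another such kinase and also strongly expressed in neurons of the thalamus, fell by 0.87 in F/M (SE 0.038, adjusted p = 1.55e-12), from 88.5 to 89.3 CPM in N to 46.6 to 48.6 CPM in T, and gave -0.35 in Cb (SE 0.034, adjusted p = 6.62e-12), below the fold limit. Of 9 genes of the other NADPH oxidases, 1 could be tested in Cb and 2 in F/M, and 0 were called by edgeR, DESeq2 or limma-voom, with 0 at an unadjusted p under 0.05. *Noxo1* gave 0.10 in both areas, and the summed level of the 9 genes was 2.40 to 3.64 CPM over the 12 libraries.

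Among 10 genes that control Nrf2, 1 was called higher in Cb, a share near the 8.54% of all genes tested, and 1 lower in F/M, where 0.858% were. *Nfe2l2*, which encodes Nrf2 itself, was at 24.9 to 25.4 CPM in Cb-N against 30.1 to 31.7 CPM in Cb-T, and at 18.8 to 20.5 CPM in F/M-N against 20.9 to 23.7 CPM in F/M-T. It gave a log2 fold change of 0.31 in Cb (SE 0.052, adjusted p = 2.76e-06) and 0.22 in F/M (SE 0.064, adjusted p = 0.0162), both below the fold limit. *Sqstm1*, an autophagy receptor that binds Keap1, rose by 0.59 in Cb (SE 0.025, adjusted p = 1.26e-23), just past the fold limit, from 264 to 278 CPM to 396 to 408 CPM, and was not called by DESeq2. In F/M it gave 0.42 (SE 0.030, adjusted p = 3.96e-09). *Maff*, a small Maf partner, fell by 0.94 in F/M (SE 0.22, adjusted p = 0.00412), from 1.69 to 2.12 CPM to 0.788 to 1.11 CPM, and gave 0.41 in Cb (SE 0.28, adjusted p = 0.225). *Mafg*, another small Maf, gave -0.44 in Cb (SE 0.035, adjusted p = 2.89e-14), and *Nfe2l1*, a relative of Nrf2, gave 0.19 (SE 0.026, adjusted p = 3.52e-08), neither past the fold limit.

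The 22 further Nrf2 targets changed little in size, and most of them upward. In Cb 1 of 22 was called higher, where 8.54% of all genes tested were, while 18 of 22 passed the FDR limit upward at any fold, where 29.8% of all genes tested did. Their median log2 fold change was 0.28 in Cb and 0.13 in F/M. In F/M, where 2.63% of all genes tested were called higher, 0 of 22 were called by edgeR or DESeq2 and 1 by limma-voom, 13 had an unadjusted p under 0.05, and 12 passed the FDR limit upward at any fold, where 12.8% of all genes tested did. The gene called in Cb was *Osgin1*, a growth inhibitor induced by oxidants, with 8 to 10 counts per library in Cb-N against 13 to 23 in Cb-T. It passed the filter through the Cb-T libraries and DESeq2 did not call it, so that its call is not read as a change. *Fth1*, the ferritin heavy chain, gave 0.48 in Cb (SE 0.025, adjusted p = 3.36e-20) and 0.27 in F/M. *Prdx1*, a peroxiredoxin, gave 0.49 in Cb (SE 0.038, adjusted p = 1.12e-14) and 0.32 in F/M, and *Tkt*, the transketolase of the pentose phosphate pathway that supplies NADPH, gave 0.37 in Cb (SE 0.031, adjusted p = 9.56e-14) and 0.11 in F/M.

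Of 15 other antioxidant enzymes, 1 was called higher in Cb, a share near the 8.54% of all genes tested, and 0 in F/M, by edgeR, DESeq2 and limma-voom alike, with 7 at an unadjusted p under 0.05 in F/M. At any fold 11 passed the FDR limit upward in Cb, where 29.8% of all genes tested did, and 5 in F/M, where 12.8% did. *Prdx6*, a peroxiredoxin that repairs oxidized phospholipids, rose by 0.85 in Cb (SE 0.028, adjusted p = 2.23e-27), from 129 to 138 CPM to 235 to 242 CPM, and gave 0.32 in F/M (SE 0.034, adjusted p = 1.29e-06). The superoxide dismutase *Sod1* gave 0.30 in Cb and 0.26 in F/M, catalase (*Cat*) gave 0.30 and 0.08, and *Prdx2* gave 0.19 and 0.09, all below the fold limit. The median of the list was 0.23 in Cb and 0.09 in F/M.

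**Figure D4:**
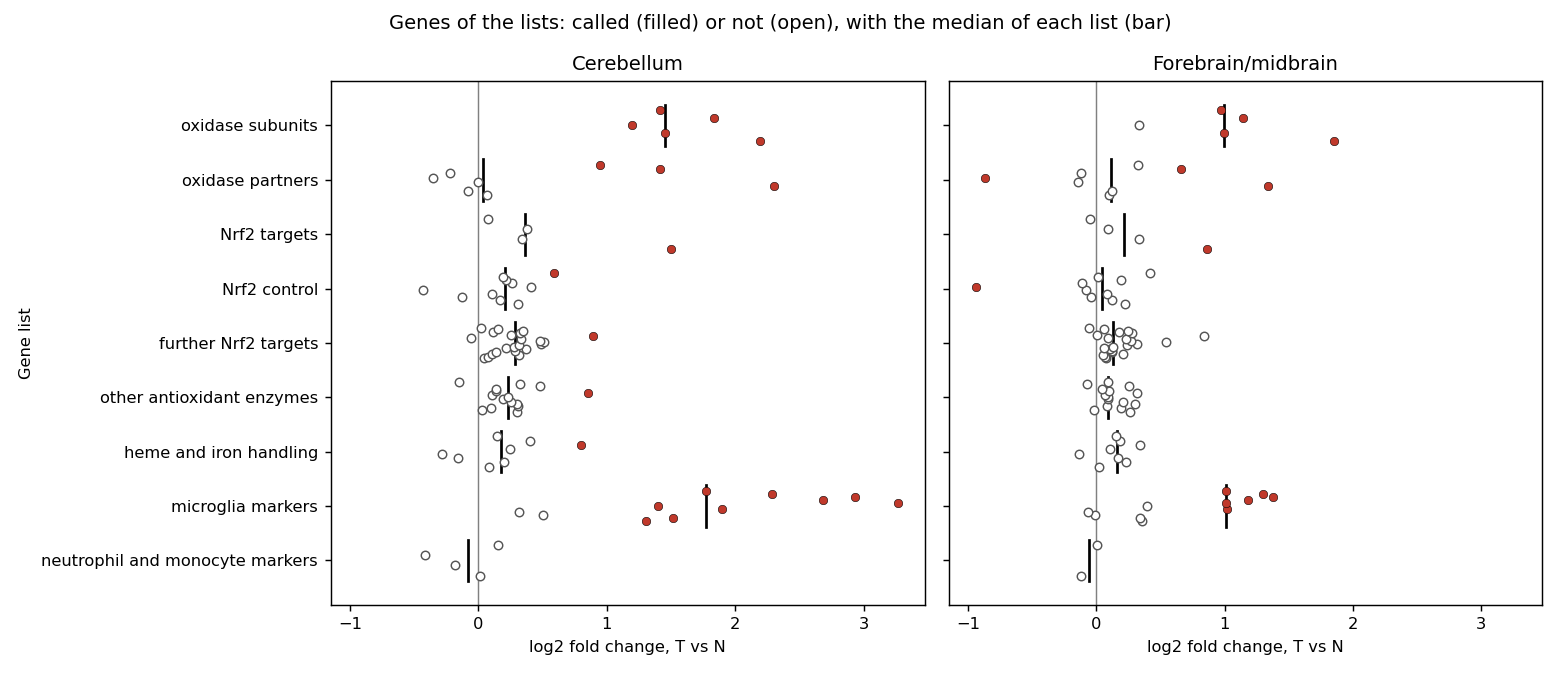
Log2 fold change of T against N (horizontal axis) for every tested gene of 9 lists (vertical axis) in Cb (left) and F/M (right); filled points were called, open points were not, and bars are list medians. In Cb the oxidase subunits (median 1.45) lie in the range of the microglia markers (median 1.77), and the further Nrf2 targets lie near 0.28.

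Markers of other cells were read beside these results. The 11 microglia markers, with *Csf1r*, *Ctss* and *C1qa* the highest of them, summed to 129 to 137 CPM in Cb-N against 471 to 482 CPM in Cb-T, and 383 to 388 CPM in F/M-N against 593 to 606 CPM in F/M-T. Called higher were 9 of 11 in Cb, where 8.54% of all genes tested were, and 6 of 11 in F/M, where 2.63% were, with medians of 1.77 and 1.01. In Cb all 11 had a log2 fold change above 0, as all 5 oxidase subunits did. In F/M 9 of 11 did, and *P2ry12* (-0.0076, adjusted p = 0.927) and *Tmem119* (-0.064, adjusted p = 0.481), named here after their values were seen, did not, while all 5 subunits were above 0. All 11 were called lower in Cb-N than in F/M-N, where 42.4% of all genes tested were called in either direction. Of the subunits, *Ncf1*, *Ncf4* and *Rac2* were called lower too. *Cybb* (log2 difference 0.53, adjusted p = 0.045) and *Cyba* (-0.10, adjusted p = 0.6) were not called. In whole tissue, more cells of a type and more RNA per cell cannot be told apart. Of 6 markers of border macrophages, *Mrc1* (log2 fold change 0.69, adjusted p = 1.85e-06) and *F13a1* (0.59, adjusted p = 0.00832) were called higher in Cb, while *Cd163* (-0.16, adjusted p = 0.595) and *Lyve1* (-0.37, adjusted p = 0.333) were not called. *Ms4a7* in both areas and *Pf4* in Cb passed the filter through the T libraries, so that their calls are not counted, and in F/M the rest of the list was not called. *Lyve1*, *Ms4a7* and *Pf4* were named after their values were seen. The sum of the 6 went from 8.54 to 9.63 CPM to 13.3 to 13.9 CPM in Cb. Of 10 markers of neutrophils and monocytes, 4 could be tested in Cb and 2 in F/M and 0 were called by edgeR, DESeq2 or limma-voom, with 0 at an unadjusted p under 0.05. Their sum was 4.17 to 4.55 CPM in Cb-N against 3.81 to 4.22 CPM in Cb-T, 1.98 to 2.52 CPM in F/M-N against 1.76 to 2.02 CPM in F/M-T, and *Elane* in F/M-N and *Elane* and *Ly6g* in F/M-T were at 0. Astrocyte markers, among 8 of which 2 were called higher in Cb and 1 in F/M (8.54% and 2.63% of all genes tested), summed to 6239 to 6271 CPM in Cb-N against 8066 to 8098 CPM in Cb-T, and 5442 to 5739 CPM in F/M-N against 6312 to 6689 CPM in F/M-T. The part of microglia, border macrophages and astrocytes in the changes of the 9 genes was not tested.

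Each gene was also divided by the summed microglia markers of its library. The ratio is given in CPM per 1000 CPM of the markers, as a description with no test. *Cybb* was at 8.91 to 12.5 in Cb-N against 11.8 to 14.6 in Cb-T, and at 2.12 to 3.02 in F/M-N against 5.2 to 6.39 in F/M-T. For this gene the mean ratio was higher in T in both areas, with no overlap in F/M and with 1 Cb-N library inside the range of Cb-T. *Cyba* was at 23.4 to 29.1 in Cb-N against 18.3 to 20.7 in Cb-T, and at 7.54 to 12.02 in F/M-N against 9.998 to 13.4 in F/M-T, lower in T in Cb and overlapping in F/M. *Ncf1* was at 18.5 to 22.1 in Cb-N against 11.2 to 14.6 in Cb-T, and at 16.9 to 19.8 in F/M-N against 13.1 to 15.7 in F/M-T, so that it lay below N in both areas. *Rac2* overlapped between T and N in both areas, and *Ncf4* overlapped in Cb and was higher in T in F/M (1.41 to 1.75 against 1.95 to 2.36). *Hmox1* was at 25.7 to 28.9 in Cb-N against 17.5 to 22.9 in Cb-T, and at 9.85 to 10.9 in F/M-N against 10.3 to 13.2 in F/M-T. *Nqo1*, *Srxn1* and *Txnrd1* per marker were lower in T in both areas without overlap. Their means were 74.3, 720 and 545 in Cb-N against 25.7, 256 and 157 in Cb-T. In F/M they were 14.0, 275 and 191 in N against 11.1, 185 and 117 in T. In the N groups *Ncf1* per marker overlapped between Cb and F/M, and *Cybb* and *Cyba* per marker were higher in Cb-N than in F/M-N. The markers may themselves change per cell, so that the ratio is not a level per cell.

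**Figure D5:**
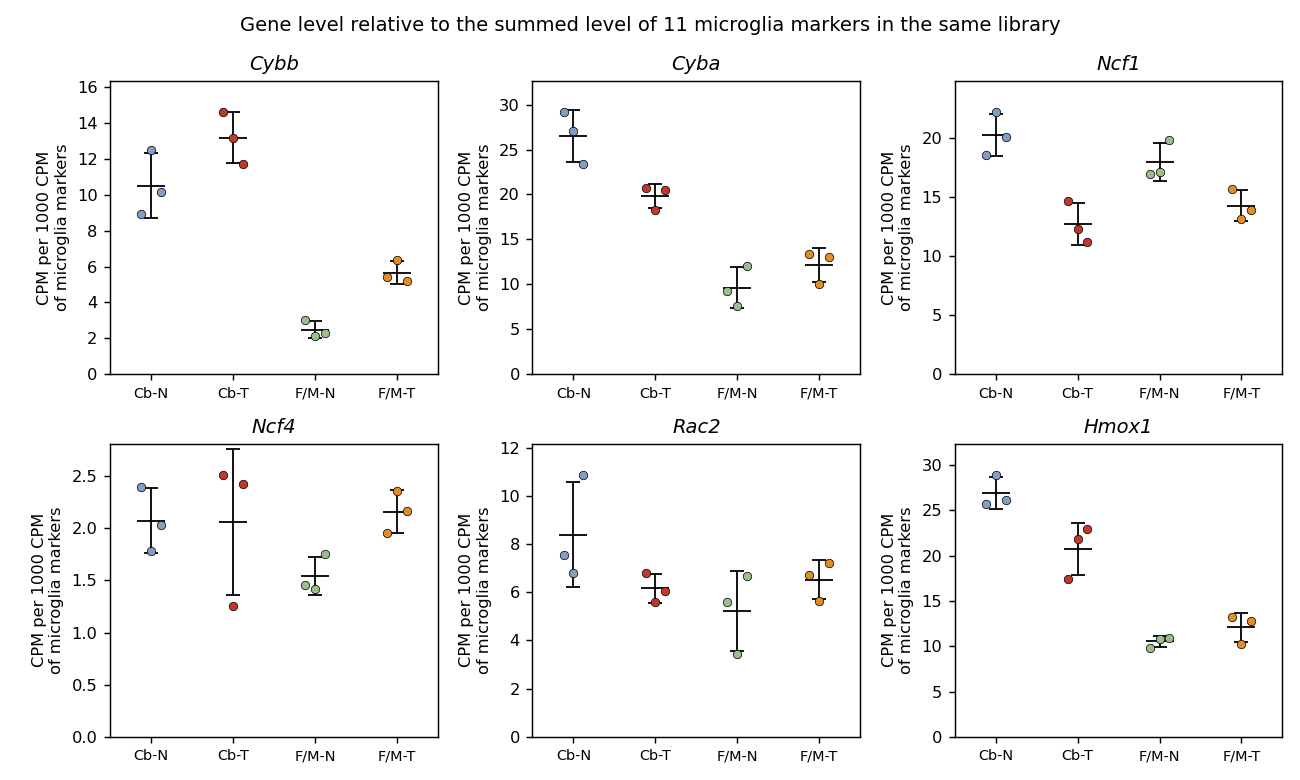
Level of the 5 oxidase subunits and *Hmox1* in CPM per 1000 CPM of 11 summed microglia markers (vertical axis, from 0) in the 4 groups (horizontal axis); points are libraries, and the bar and whiskers are the mean and SD of 3. The mean of *Cybb* is higher in T than in N, at 13.2 against 10.5 in Cb, where the libraries overlap, and 5.67 against 2.48 in F/M, and *Ncf1* is lower in T in both areas.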

How the data were processed

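Poly(A) RNA of the 12 libraries was sequenced by the authors as single-end reads from stranded libraries. Per the labels, the authors aligned them to mm10 with STAR 2.5.1b and counted them per gene with featureCounts 1.26.1, and the deposited values are these raw counts without normalization. The annotation release and the handling of strand and of reads with several alignments are not given in the sources used here.

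From these counts, genes were kept by filterByExpr (minimum count 10, minimum total count 15), scaled by TMM and tested in R 4.3.3 with edgeR 4.0.16 (glmQLFit and glmQLFTest, Benjamini-Hochberg adjustment over all genes tested). The 6 libraries of an area were fitted with genotype alone, and all 12 libraries for the interaction and for control Cb against control F/M. DESeq2 1.42.0, limma-voom (limma 3.58.1) and the other settings in the closing section were alternatives. The fits were tested on simulated counts. CPM is scaled over the 12 libraries, set means use log2 CPM with a prior count of 2, and RPKM uses GENCODE exons of GRCm38, whose release may differ from the authors'. Replicate pairs of a group differed by more than sampling noise (chi-square per degree of freedom 1.27 to 3.37 for 12 pairs), so that none was taken as a repeat deposit of another library. This does not show that they are of separate animals.

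The 9 genes and the lists were chosen with earlier results of these data known, and the division by microglia markers was added after the values had been seen. Named were the 9 genes, *Tpp1*, each listed pathway gene called in either area, the 3 uncalled genes of each pathway list with the smallest adjusted p in Cb, the markers with the largest mean or at 0, and the genes most like *Cybb*, *Hmox1* and *Nqo1*. In the oxidase partner list and in the microglia marker list, 1 gene each is not reported here and was left out of the counts and sums. *Gtf2ird2* was added for its overlap with *Ncf1*.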

Additional observations from a re-analysis of the deposited data

Results flagged for a closer look

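Of 78 genes tested among the 9 and the pathway lists, 6 had a higher log2 fold change in Cb than in F/M. The call is by the test of the interaction itself (edgeR's quasi-likelihood test, adjusted p below 0.1 and at least 1.5-fold). This share was near the 6.41% of all genes tested. Among the 9 genes these were *Ncf1*, with a log2 difference of 0.89 (SE 0.17, adjusted p = 0.000308), and *Hmox1*, with 0.66 (SE 0.18, adjusted p = 0.00894). Among the partners of the oxidase, the difference was 0.98 for *Hvcn1* (SE 0.20, adjusted p = 0.000625), 0.78 for *Vav1* (SE 0.22, adjusted p = 0.0091) and 0.64 for *Arhgdib* (SE 0.14, adjusted p = 0.00125). All of these rose more in Cb, as did 9 of the 11 microglia, 1 of the 8 astrocyte and 1 of the 6 border macrophage markers. *Maff* gave a difference of 1.37 (SE 0.36, adjusted p = 0.00504), with a log2 fold change of 0.41 in Cb, where the libraries overlapped, and -0.94 in F/M, where all T libraries were lower.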

How the results depend on the processing

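In Cb 6 and in F/M 5 of the 9 genes were called with each single library left out, and the interaction called 1 to 4 and the control comparison 4 to 5. For the interaction, 4 were called without F/M-N replicate 2 and 1 each without F/M-T replicate 2 and without Cb-T replicate 3. The median of the oxidase subunits ranged from 1.42 to 1.66 for Cb, and from 0.842 to 1.19 for F/M, over the left-out libraries, the highest without Cb-N replicate 3 and without F/M-N replicate 3, and that of the Nrf2 targets was 0.32 to 0.37 and 0.17 to 0.26. With no limit on the fold change, 8 genes were called in F/M and 5 for the interaction, and with a fold change of at least 2, 2 in F/M, 0 for the interaction and 2 in the control comparison. A mean count of at least 50 left 4 calls in Cb, where *Ncf4* and *Rac2* were then not tested, and 4 in F/M, where *Ncf4* was not. The *Nqo1* interaction turned to -0.018 with a mean count of at least 50 and lay between -0.048 and 0.11 over the left-out libraries, of which 5 turned its sign, and the *Cyba* control difference lay between -0.25 and 0.10. The replicate block left the calls at 6, 5, 2 and 4 genes in Cb, in F/M, for the interaction and in the control comparison. Libraries of the same number did not deviate together, so that the numbers were not taken as pairs. The correlation of deviations was -0.0157 to 0.0616 between N and T, and -0.00243 to 0.0523 between Cb and F/M of a genotype. The interaction and the control comparison thus treat Cb and F/M libraries as independent, although both areas came from the same mice. DESeq2, limma-voom, RLE size factors and an FDR below 0.05 kept the number of calls in each comparison.

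The lowest genes limit the precision, since *Ncf4* rests on 5 to 34 counts per library.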

Other observations

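Heme and iron genes, which handle what heme oxygenase works on and releases, moved less than *Hmox1*. Of 11 genes in the list 8 could be tested in each area, and 1 was called higher in Cb, a share near the 8.54% of all genes tested. It was *Slc40a1*, which exports iron from cells, at 9.23 to 9.54 CPM in Cb-N against 16.0 to 16.6 CPM in Cb-T (log2 fold change 0.80, SE 0.077, adjusted p = 7.02e-12), and at 12.4 to 12.9 CPM in F/M-N against 15.5 to 16.3 CPM in F/M-T (0.34, SE 0.068, adjusted p = 0.00118, below the fold limit). *Lrp1*, a receptor that takes up heme bound to hemopexin among other ligands, gave -0.28 in Cb, with an adjusted p of 1.44e-12, and -0.14 in F/M. *Slc48a1*, a heme transporter, gave 0.24 and 0.11, and *Trf*, transferrin, gave 0.40 and 0.18. In F/M 0 of 8 were called by edgeR, DESeq2 or limma-voom, with 6 at an unadjusted p under 0.05. Red blood cell markers moved in the same direction in Cb. The 5 genes, led by *Hbb-bs*, summed to 89.3 to 99.0 CPM in Cb-N against 122 to 132 CPM in Cb-T, and to 75.1 to 84.5 CPM in F/M-N against 85.9 to 96.8 CPM in F/M-T, and 1 of 5, *Alas2*, was called higher in Cb (0.64, adjusted p = 4.23e-06), where 8.54% of all genes tested were. Their part in the heme and iron values was not tested.

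Of the 3 nitric oxide synthases, 0 were called in either area by edgeR, DESeq2 or limma-voom, with 1 at an unadjusted p under 0.05 in Cb and 0 in F/M. *Nos2*, the inducible form of macrophages, was at 0.642 to 0.888 CPM in Cb-N against 0.871 to 1.21 CPM in Cb-T, and at 0.738 to 1.02 CPM in F/M-N against 0.621 to 0.876 CPM in F/M-T, with overlap in both areas. *Nos1* and *Nos3*, the neuronal and endothelial forms, gave 0.06 and 0.01 in Cb and 0.01 and 0.16 in F/M.

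Lists of other cells held 0 genes called by edgeR, DESeq2 or limma-voom in Cb or F/M for 6 oligodendrocyte, 6 neuron, 6 endothelial and 6 cerebellar granule and Purkinje markers. At an unadjusted p under 0.05 there were 6, 5, 3 and 4 of them in Cb and 2, 3, 2 and 2 in F/M. At any fold, 6, 2, 3 and 0 of them passed the FDR limit upward in Cb, where 29.8% of all genes tested did. Downward in Cb it was passed by 0, 3, 0 and 4. In F/M 1, 0, 2 and 1 passed it upward, where 12.8% of all genes tested did, and 0, 3, 0 and 1 downward. In Cb the log2 fold change was above 0 for 6 of 6 oligodendrocyte, 3 of 6 neuron, 4 of 6 endothelial and 1 of 6 granule and Purkinje markers, with medians of 0.33, -0.11, 0.15 and -0.15. In F/M the medians were 0.02, -0.05, 0.10 and -0.26, and those of all genes tested were 0.012 in Cb and 0.0078 in F/M. The part of these cells in the values of the 9 genes was not tested.

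The genes most like *Cybb* over the 12 libraries, of 17481 genes searched, were *Serpinf2* (Pearson r = 0.988), *Npc2* (0.979) and *Cd9* (0.978). Most like *Hmox1* were *Ptgds* (0.984), *Ctsd* (0.981) and *Gfap* (0.976), and most like *Nqo1* were *Cotl1* (0.987), *Mxra8* (0.986) and *Acadvl* (0.985). The 12 libraries share their groups and their scaling, so that these values are descriptions and carry no test. Among the 9 genes themselves, *Cybb* with *Cyba* gave r = 0.916 and *Hmox1* with *Cyba* 0.952, *Ncf4* with *Rac2* gave 0.920, and *Ncf1* with *Cybb* gave 0.330.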
